A study of Mus musculus with 30 samples.

Results

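The fetal-like regenerative epithelium genes are *Ly6a*, *Anxa1*, *Anxa3*, *Clu*, *Msln* and *Ankrd1*, 6 genes taken by name from a table of 46078 genes. The rule takes them by name alone, and no value enters it, although earlier results of these data were known when the set was drawn up. They were followed in scraped colon epithelium of C57BL/6J wild-type mice in 30 libraries, with 5 mice and 1 library per mouse in each of 6 groups, females and males given vehicle, AOM/DSS for 9 weeks or AOM/DSS for 15 weeks. Azoxymethane (AOM) is a carcinogen, injected once at 10 mg/kg, and dextran sulfate sodium (DSS) is an irritant that causes colitis, which the mice drank at 2.5% during 3 cycles. The vehicle mice, given saline, were all taken at 9 weeks and are the baseline of both times, so at 15 weeks an effect of treatment and one of age cannot be told apart. The tissue at 15 weeks was epithelium outside the tumours.

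When the intestinal lining is injured, crypts lose part of the adult stem cell program and surviving cells switch on genes that are otherwise typical of the fetal gut. *Ly6a* (Sca-1, a surface protein held by a lipid anchor) and *Anxa1* (annexin A1, a membrane-binding protein that limits inflammation) are the usual marks of this state, with the related *Anxa3*. *Clu* (clusterin, a secreted chaperone) marks rare revival stem cells, and *Msln* (mesothelin, a surface protein) and *Ankrd1* (a muscle ankyrin repeat protein and a standard target of the co-activator YAP and its TEAD partner factors) complete the set. The same genes are not private to the epithelium. *Ly6a* is also made by lymphocytes and endothelium, *Anxa1* and *Anxa3* by neutrophils and squamous epithelium, *Msln* by mesothelium and *Ankrd1* by muscle. In bulk tissue, fewer cells of a type and less RNA per cell cannot be told apart.

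All 6 are protein-coding genes in GENCODE. Their positions on GRCm38 are those the authors deposited, and for *Clu*, *Msln* and *Ankrd1* the start or end differs in GENCODE. *Ly6a* (ENSMUSG00000075602) lies at chr15:74994877-74998031 on the minus strand, and *Anxa3* (ENSMUSG00000029484) at chr5:96793339-96845966 on the plus strand. *Clu* (ENSMUSG00000022037) is at chr14:65968483-65981548 on the plus strand and *Msln* (ENSMUSG00000063011) at chr17:25748614-25754327 on the minus strand. *Anxa1* (ENSMUSG00000024659) at chr19:20373428-20390944 and *Ankrd1* (ENSMUSG00000024803) at chr19:36111965-36119844 share a chromosome and the minus strand. In GENCODE, *Anxa1* overlaps the long noncoding gene *1500015L24Rik* on the other strand and *Anxa3* overlaps the unconfirmed gene *Gm42603* on its own strand, so reads could be split there.

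The promoters of *Anxa1* and *Ankrd1* are shown because TEAD factors bind the letters GGAATG, and *Ankrd1* is the set's standard YAP target. Each sequence below is RefSeq's, on build GRCm38.p6, 300 bases from 250 before to 50 after the start site and read on the gene's own (minus) strand. Capitals mark GGAATG or its reverse complement CATTCC. The *Anxa1* window lies wholly inside the gene span given above, so the start site used for it is inside that span. The *Ankrd1* window reaches beyond the span given above for its gene. Promoter sequences were found for 2 of the 6 genes, and *Anxa3*, *Clu*, *Ly6a* and *Msln* are named only.
Anxa1, chr19:20390622-20390921: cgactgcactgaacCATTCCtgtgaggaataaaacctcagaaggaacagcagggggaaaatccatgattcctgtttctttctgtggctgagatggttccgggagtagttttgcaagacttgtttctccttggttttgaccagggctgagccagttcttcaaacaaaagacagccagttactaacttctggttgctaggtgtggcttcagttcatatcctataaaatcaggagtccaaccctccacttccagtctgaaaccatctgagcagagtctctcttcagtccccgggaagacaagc
Ankrd1, chr19:36119795-36120094: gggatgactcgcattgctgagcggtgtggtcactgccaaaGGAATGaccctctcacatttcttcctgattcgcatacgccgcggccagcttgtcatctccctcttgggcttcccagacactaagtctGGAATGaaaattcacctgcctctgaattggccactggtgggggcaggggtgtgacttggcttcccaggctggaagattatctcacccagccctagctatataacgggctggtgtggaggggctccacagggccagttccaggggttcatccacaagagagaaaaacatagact

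The *Ankrd1* window held the TEAD letters 2 times and the *Anxa1* window 1 time, against 14.7% of all 32851 promoters with at least 1 match on either strand. Searched in the same way, TGANTCA (AP-1) was in 7.81% of all promoters and the NF-kB motif in 1.63%. Neither was in either window, which says only that these letters are not there.

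The libraries held 9.27 to 30.8 M counts on genes, with a median of 24.7 M. Levels between libraries are given as CPM (counts scaled to a common library size, with TMM factors), and levels between genes as FPKM, which also divides by transcript length (fragments per kilobase, scaled to the library). TPM, the other unit per length, was harder to compare between libraries, because the short mitochondrial gene *mt-Nd4l* alone held 39.2% to 58.1% of all TPM on only 14 to 148 counts. Epithelium markers were high everywhere, with 9 of 9 in the table and a summed level of 9883 to 18809 CPM over all libraries. A pair of libraries stood apart and both touch the genes described here. Male vehicle replicate 1 held 8 squamous epithelium markers at a summed 291 CPM, against at most 9.52 CPM in any other library, together with 5969 CPM of smooth muscle markers. Female 9-week replicate 5 had the lowest leukocyte, mesenchyme and *Ly6a* levels of its group. The calls of the 6 genes were also made without both, as were the counts of the gene lists, a choice made after their values were seen.

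Per length, the order of the genes was nearly fixed. *Ly6a* had the highest FPKM in 29 of the 30 libraries, and the order was *Ly6a*, *Anxa1*, *Anxa3*, *Clu*, *Msln*, *Ankrd1* in 17 libraries and the same with *Anxa3* before *Anxa1* in 12. The exception was male vehicle replicate 1, where *Anxa1* came first and *Ankrd1* stood above *Msln*. The FPKM of *Ly6a* was 3.4 times that of *Anxa1* at the median library, with a range of 0.656 to 7.43. *Anxa1* and *Anxa3* are neighbours that did not separate, with an FPKM ratio of 0.562 to 2.06 and *Anxa1* above in 18 of 30 libraries. *Clu* stayed below *Anxa3* in all 30, by a factor of 1.75 to 25.4.

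The question of the first comparison was whether these genes differ from vehicle soon after the last DSS cycle. At 9 weeks *Ly6a*, *Clu* and *Anxa1* rose with the sexes averaged, while *Anxa3* and *Msln* did not pass the test and *Ankrd1* was too low to test. A gene passed when its adjusted p was under 0.05 over the 16261 genes tested by edgeR's quasi-likelihood test, its log2 fold change lay beyond 0.4 and its mean FPKM reached 1 in a compared group. By that rule 3 of the 5 tested genes were higher and none was lower, against 5.51% and 2.78% of all tested genes. Their median log2 fold change was 0.80, and that of all tested genes −0.02. DESeq2 gave the same number, 3.

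*Ly6a* had the largest change of the set. In vehicle females it was measured at 207, 111, 95.3, 118 and 90.7 CPM, and in vehicle males at 110.2, 169.8, 115.4, 142.7 and 134 CPM. At 9 weeks the 5 females held 748, 499.8, 510.3, 589 and 197 CPM and the 5 males 727, 997, 703, 679 and 504 CPM. All males at 9 weeks and 4 of the 5 females lay above every vehicle library, the exception being female 9-week replicate 5. With the sexes averaged *Ly6a* rose 4.68-fold (95% interval 3.42 to 6.40, log2 fold change 2.23 ± 0.22 SE, edgeR adjusted p = 6.43e-08, n = 10 against 10). Without the pair of libraries that stand apart the log2 fold change was 2.29.

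*Clu* varied widely between mice of one group. Vehicle females held 38.4, 5.43, 3.18, 14.8 and 6.29 CPM and vehicle males 14.1, 35.9, 8.61, 24.9 and 30.9 CPM. At 9 weeks it stood at 55.6, 59.97, 29.1, 42.9 and 11.8 CPM in females and at 70.5, 47.7, 82.2, 64.8 and 32.2 CPM in males. Of the 10 libraries at 9 weeks 7 lay above every vehicle library, and the rest overlapped them. *Clu* rose 2.74-fold (95% interval 1.38 to 5.44, log2 fold change 1.46 ± 0.48 SE, edgeR adjusted p = 0.0357). This call was lost in 12 of 20 fits that left out 1 library, with edgeR adjusted p of 0.00548 to 0.0655 over the 20 fits. The log2 fold changes were 1.32 to 1.90, so the direction held in these fits. Whether the threshold was met depended on which library was left out.

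*Anxa1* changed less but more evenly. Vehicle females were at 161, 72.8, 106, 129.9 and 89.4 CPM and vehicle males at 299, 148, 108, 135 and 127 CPM, the first male value being that of the library with squamous markers. At 9 weeks the values were 231, 225, 256, 198 and 131 CPM in females and 282, 243, 235, 267 and 217 CPM in males. Male vehicle replicate 1 stood above every library at 9 weeks, and the next highest vehicle library was below 9 of the 10. *Anxa1* rose 1.68-fold (95% interval 1.32 to 2.15, log2 fold change 0.75 ± 0.17 SE, edgeR adjusted p = 0.00269). Without the libraries that stand apart the log2 fold change was 0.97, with an adjusted p of 1.44e-05.

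*Anxa3* and *Msln* did not pass. *Anxa3* ran from 57.1 to 248 CPM in vehicle libraries and from 58.9 to 241 CPM at 9 weeks, almost the same range, with a fold change of 1.17 (95% interval 0.841 to 1.63, edgeR adjusted p = 0.563). An increase above the upper bound is outside that interval. *Msln* was near the limit of the depth at 0 to 1.73 CPM in vehicle and 0.457 to 1.83 CPM at 9 weeks, on 0 to 50 counts per library. Its fold change was 1.75 (95% interval 0.998 to 3.06, edgeR adjusted p = 0.171), and its mean FPKM stayed under 1 in every group. *Ankrd1* had 0 counts in 24 of the 30 libraries, 1 to 4 counts in 5 libraries given AOM/DSS, and 17 counts in male vehicle replicate 1. In that library the muscle markers *Ckm* and *Myh11* stood at 16.4 and 1400 CPM, against at most 0.19 and 43.5 CPM elsewhere. The 7 striated muscle markers summed to 28.99 CPM, most of it *Ckm*, against at most 15.4 CPM at 15 weeks and 11.4 CPM at 9 weeks. *Tnnt3* and *Tnnc2* were also highest there, at 1.63 and 1.46 CPM against at most 0.393 CPM elsewhere. *Acta1*, *Mylpf* and *Actn3* were at 8.43, 0.911 and 0.13 CPM, below their highest levels elsewhere of 13.5, 3.01 and 0.368 CPM. *Myh4* was at 0 in all libraries. A count of 0 allows up to 3 counts, which covers counting error only, since duplicate reads were not removed. No fold is given for *Ankrd1*.

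**Figure D1:**
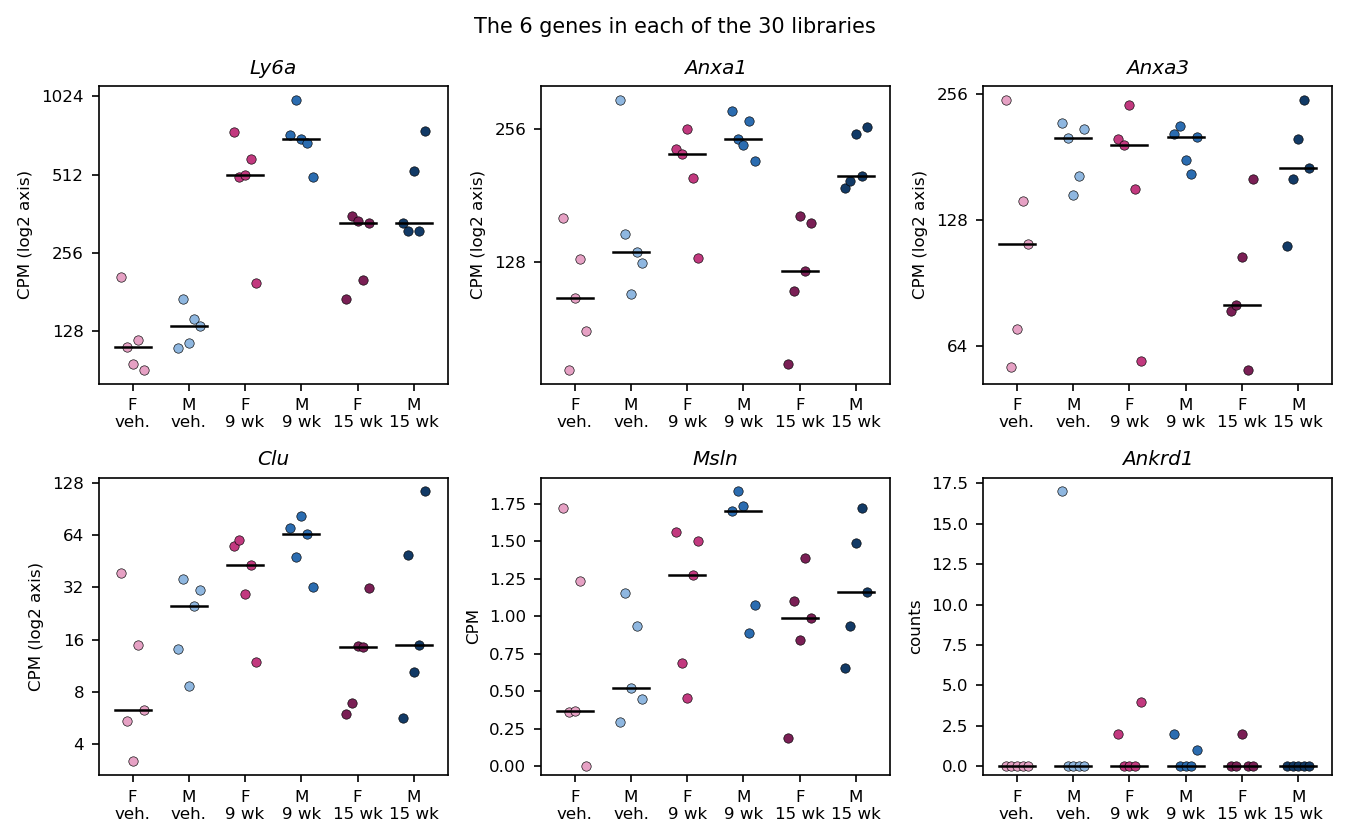
Level of each gene in all 30 libraries, 1 point per library and a bar at the group median; F and M are females and males, veh. is vehicle, and wk is weeks of AOM/DSS. The first 4 panels use a log2 axis of CPM, *Msln* a linear axis of CPM and *Ankrd1* a linear axis of raw counts. All 5 males at 9 weeks stand above the vehicle libraries for *Ly6a*, and the single *Ankrd1* library with 17 counts is male vehicle replicate 1.

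At 15 weeks *Ly6a* was the 1 gene of the 5 tested that passed above vehicle, and it had come down from 9 weeks. None was lower, against 3.46% and 3.89% of all tested genes in those directions. *Ly6a* stood at 170.2, 356, 339.9, 201 and 333 CPM in females and at 334, 312, 528, 312 and 757 CPM in males, and 8 of these 10 libraries lay above every vehicle library. It was 2.74-fold vehicle (95% interval 2.02 to 3.71, log2 fold change 1.45 ± 0.21 SE, edgeR adjusted p = 0.000107). In no tested gene of the set did all libraries separate from vehicle in the averaged comparisons, while 0.935% of all genes did so upwards at 9 weeks and 0.166% at 15 weeks.

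*Anxa1* at 15 weeks was measured at 75.3, 110.3, 162.8, 122.1 and 157.1 CPM in females and at 188, 195, 249.9, 201 and 259 CPM in males, 1.22-fold vehicle (95% interval 0.961 to 1.56, edgeR adjusted p = 0.224). Without male vehicle replicate 1 it passed, with a log2 fold change of 0.46 and an adjusted p of 0.0398, and without both libraries that stand apart at 0.47 and 0.0237. *Clu* was at 5.94, 6.93, 14.7, 14.6 and 31.8 CPM in females and at 5.64, 49.0, 10.4, 14.9 and 114.4 CPM in males. Its log2 fold change of 0.44 (edgeR adjusted p = 0.531) rested on the highest male, and without male 15-week replicate 5 it was −0.03. *Anxa3* was 0.848-fold vehicle (95% interval 0.608 to 1.18) and *Msln* 1.45-fold (95% interval 0.824 to 2.54), and neither passed.

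Between 9 and 15 weeks *Ly6a* fell by 0.77 on the log2 scale (SE 0.21, edgeR adjusted p = 0.0363), from a mean of 615 to 364 CPM, and 1 of the 10 later libraries lay below all 10 earlier ones. Of all tested genes 1.91% were lower and 0.418% were higher. The *Ly6a* call was lost in 11 of 20 fits without 1 library, with an adjusted p of up to 0.0827. The other 4 genes had lower means at 15 weeks and did not pass, with log2 fold changes of −0.46 for *Anxa1*, −0.47 for *Anxa3*, −1.02 for *Clu* and −0.27 for *Msln*. *Anxa1* passed without female 9-week replicate 5, at −0.51 and an adjusted p of 0.0381.

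Taken by sex, *Ly6a* and *Anxa1* passed in females at 9 weeks and *Ly6a* alone in males, against 2.42% and 4.42% of all tested genes that were higher. *Ly6a* rose 4.08-fold in females (95% interval 2.63 to 6.33, edgeR adjusted p = 0.000257) and 5.37-fold in males (95% interval 3.44 to 8.38, edgeR adjusted p = 1.52e-05). With the leukocyte score, described below with the markers of other cells, as a covariate the female call was lost (log2 fold change 1.08, edgeR adjusted p = 0.618). *Anxa1* rose 1.86-fold in females (95% interval 1.32 to 2.63, edgeR adjusted p = 0.0295), and in males its value was 1.52-fold (95% interval 1.08 to 2.15, edgeR adjusted p = 0.105). Without male vehicle replicate 1 the male log2 fold change of *Anxa1* went from 0.61 to 0.94, with an adjusted p of 0.00725. The female *Anxa1* call was lost in 7 of 10 fits without 1 library. *Clu* was 2.9-fold vehicle in females and 2.6-fold in males and passed in neither, with adjusted p of 0.233 and 0.196. Without female vehicle replicate 1, which held the highest vehicle *Clu*, the female log2 fold change went from 1.53 to 2.42 and passed (edgeR adjusted p = 0.0374).

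At 15 weeks *Ly6a* was 3.34-fold vehicle in males (95% interval 2.16 to 5.15, edgeR adjusted p = 0.00104), where 4.37% of all tested genes were higher. In females it was 2.25-fold (95% interval 1.46 to 3.45) and no gene of the set passed in edgeR (adjusted p for *Ly6a* = 0.127), where 0.0861% of all tested genes were higher. DESeq2 called 1, *Ly6a*. An unadjusted p under 0.05 was held by 1 gene of the set and by 1776 of all 16261 tested genes. In males *Ly6a* was the 1 gene of the set whose libraries did not overlap with vehicle, at 9 and at 15 weeks, which 5.55% and 2.88% of all genes also did upwards.

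**Figure D2:**
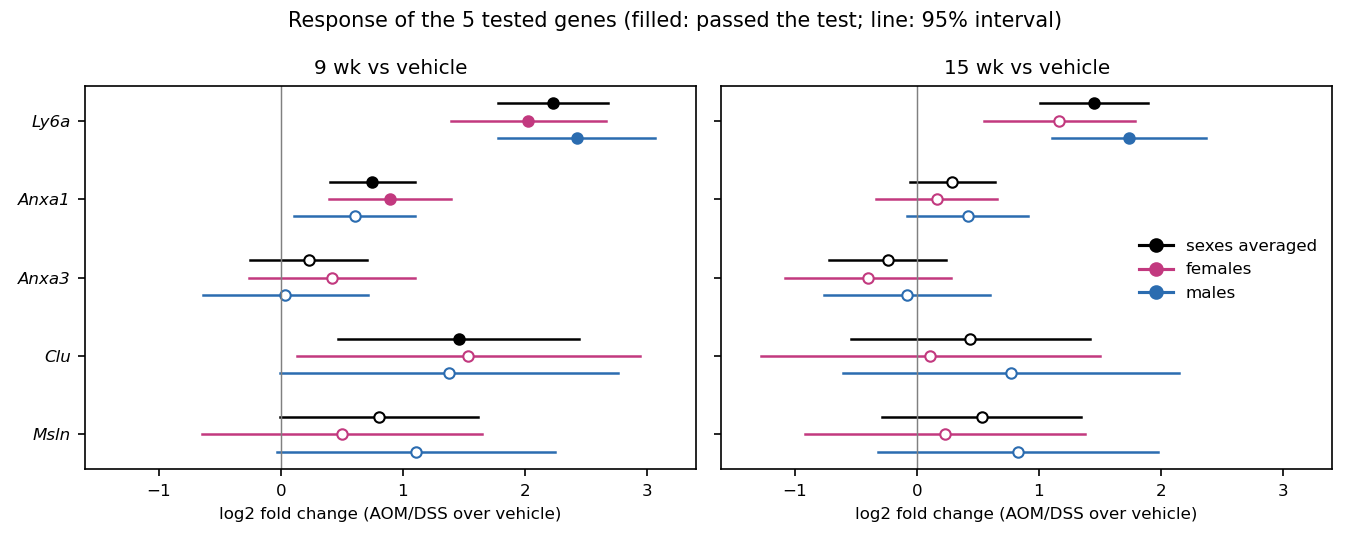
Log2 fold change of AOM/DSS over vehicle for the 5 tested genes at 9 weeks (left) and 15 weeks (right), with the sexes averaged, in females and in males; lines are 95% intervals and filled points passed the test. *Ly6a* sits furthest to the right in both panels, at 2.23 and 1.45 with the sexes averaged, and *Anxa3* lies around 0.

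The responses of the sexes were not told apart for any of these genes. The male minus female difference in the 9-week response of *Ly6a* was 0.40 ± 0.42 SE on the log2 scale (edgeR adjusted p = 0.856), which as a ratio of folds spans 0.723 to 2.39. At 15 weeks the difference was 0.57 ± 0.42 SE (edgeR adjusted p = 0.815), spanning 0.817 to 2.7. The remaining 4 genes had adjusted p of 0.871 to 0.983 at 9 weeks and 0.922 to 0.938 at 15 weeks. No gene of the set had an unadjusted p under 0.05 in either test and DESeq2 called none. Over all genes edgeR called 0.0% at both times, with 1205 and 1245 genes at an unadjusted p under 0.05, and DESeq2 called 1 gene at 9 weeks and 2 higher with 2 lower at 15 weeks.

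Direct comparisons of males with females called none of the 5 genes in edgeR. In vehicle mice 0.178% of all tested genes were called, and DESeq2 called none of the 5. An unadjusted p under 0.05 was found for 1 of the 5, against 3035 of all 16261 tested genes. At 9 weeks, with 0.0492% of all genes called, DESeq2 called none of the 5. None of them had an unadjusted p under 0.05, against 630 of all 16261. At 15 weeks, with 0.184% of all genes called, 4 of the 5 had an unadjusted p under 0.05, against 2009 of all 16261. DESeq2 called 1 of the 5 at 15 weeks, *Anxa1*. There *Anxa1* stood at a mean of 219 ± 33.1 CPM in males and 126 ± 35.9 CPM in females (SD, n = 5), 1.74-fold higher (95% interval 1.23 to 2.46, edgeR adjusted p = 0.129). Its male and female libraries did not overlap, as for 0.879% of all genes in that direction. *Anxa3* at 15 weeks was 1.85-fold higher in males (95% interval 1.15 to 2.98, edgeR adjusted p = 0.238).

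On the per-length scale the median FPKM of *Ly6a* was 94.0 in vehicle, 534 at 9 weeks and 235 at 15 weeks. For *Anxa1* these medians were 57.3, 109 and 75.3, for *Anxa3* 76.8, 98.3 and 63.0, and for *Clu* 5.88, 22.1 and 5.44. *Msln* stood at 0.163, 0.406 and 0.346. In TPM the median of *Ly6a* was 74.3 in vehicle, 465.8 at 9 weeks and 160.5 at 15 weeks. For *Anxa1* it was 36.8, 104.9 and 49.4, a wider step from vehicle to 9 weeks than in FPKM, for *Anxa3* 53.8, 86.2 and 39.1, and for *Clu* 4.502, 18.9 and 4.08. *mt-Nd4l* held a median of 48.0% of all TPM in vehicle libraries and 42.8% at 9 weeks, and its part in these differences was not tested.

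The other genes of regenerating epithelium moved with the set in part. Of 16 tested, 8 were higher at 9 weeks and none was lower, and 5 were higher at 15 weeks, with a median log2 fold change of 0.60 and 0.48 against −0.02 and −0.03 for all tested genes. Without the pair of libraries that stand apart 10 were higher at 9 weeks, 6 higher at 15 weeks and 6 lower at 15 than at 9 weeks. The largest at 9 weeks were *Spp1* (osteopontin, a secreted matrix protein), at 6.65 from 0.0174 to 2.18 mean CPM, and *Basp1* (a membrane-cytoskeleton protein) at 2.31. *Plaur* (the urokinase receptor) followed at 1.92 and *Sprr1a* (a precursor of the cornified envelope) at 1.80, with adjusted p of 5.81e-05 to 0.000586 for the first pair and 5.47e-06 and 0.00017 for the second. At 15 weeks *Sprr1a* was at 1.28, *Plaur* at 1.05, *Cldn4* (a tight junction claudin) at 0.82 and *Krt7* (a keratin) at 0.54. Between 9 and 15 weeks *Plaur* fell by 0.87 and *Anxa5* fell by 0.41 on the log2 scale.

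Among the other annexins *Anxa2* rose at 9 weeks by 0.59 and at 15 weeks by 0.52, and *Anxa5* rose at 9 weeks only by this test, by 0.48. These also stand in the list of regenerating epithelium. *Anxa13*, an annexin of the intestinal epithelium, fell by 0.72 at 9 weeks, and *Anxa4* was 0.42 higher at 15 weeks with the sexes averaged. By sex *Anxa4* was then at 0.60 in males (edgeR adjusted p = 0.00135) and 0.24 in females (edgeR adjusted p = 0.422). *Anxa6*, *Anxa7*, *Anxa8*, *Anxa9* and *Anxa11* passed in neither comparison with vehicle, and *Anxa10* was too low to test. *Anxa8* was at 528 CPM in male vehicle replicate 1, its highest library, against a vehicle mean of 99.5 CPM.

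The closest relatives of *Ly6a*, such as *Ly6c1*, *Ly6c2* and *Ly6i*, lie near it and resemble it in sequence, and how reads that fit several of them were counted is not given in the sources used here, so their values are uncertain. Of 8 tested, 4 rose at 9 weeks, *Ly6i* by 3.70, *Ly6c1* by 2.78, *Ly6d* by 2.10 and *Ly6e* by 1.01 on the log2 scale, and DESeq2 called 6. *Ly6e* was the most abundant, at a mean of 302 CPM in vehicle, 609 at 9 weeks and 504 at 15 weeks, and *Ly6i* had 0.106 CPM in vehicle. At 15 weeks *Ly6d*, *Ly6g6c* and *Ly6e* were higher with the sexes averaged, by 1.53, 0.95 and 0.74. By sex *Ly6g6c* was at 1.61 in males (edgeR adjusted p = 0.0114) and 0.29 in females (edgeR adjusted p = 0.805). No gene's 15-week response was called different between the sexes by edgeR. Between 9 and 15 weeks *Ly6i* fell by 3.03 and *Ly6c1* fell by 1.65. *Ly6c2*, *Ly6g* and *Ly6g6d* passed in none of these comparisons, and *Ly6h* and *Ly6k* were too low to test.

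YAP and TEAD drive part of the fetal-like program in injured crypts. Of 20 tested targets of YAP and TEAD, 1 was higher at 9 weeks, *Cyr61* (a secreted matrix protein) by 0.82, with 5 at an unadjusted p under 0.05 and 1 called by DESeq2. Of all 16261 tested genes 5.51% were higher at 9 weeks, and 4720 had an unadjusted p under 0.05. Without the pair of libraries that stand apart 4 were higher at 9 weeks and the list's median log2 fold change went from 0.12 to 0.44. At 15 weeks *Igfbp3* and *Crim1* were lower, by −1.79 and −0.54, and none was higher. Several targets, among them *Axl*, *Ccdc80*, *Myof* and *F3*, had their highest level in male vehicle replicate 1. Of the 14 Hippo pathway genes and TEAD factors, *Tead2* and *Tead4* rose at 9 weeks by 0.75 and 0.58 on means of 3.82 and 2.92 CPM in vehicle, and none passed at 15 weeks, where 3 had an unadjusted p under 0.05 and DESeq2 called none. Of all 16261 tested genes 5559 had an unadjusted p under 0.05 at 15 weeks. *Yap1* was at 70.2 CPM in vehicle and 70.4 CPM at 9 weeks, a log2 fold change of 0.00. *Wwtr1*, the gene of the YAP relative TAZ, was at 3.86 and 2.82 CPM, and *Tead1*, *Tead3*, *Nf2*, *Lats1*, *Stk3*, *Stk4*, *Sav1*, *Mob1a*, *Mob1b* and *Vgll4* did not pass in either comparison with vehicle.

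Genes of the adult stem cell state went the other way. Of 7 tested, 4 fell at 9 weeks and none rose, with a median log2 fold change of −0.41. *Lgr5*, the receptor that marks crypt base stem cells, fell by 1.21, *Ascl2*, their transcription factor, fell by 0.85, *Smoc2* fell by 0.54 and *Rgmb* fell by 0.41. DESeq2 called 3. At 15 weeks *Lgr5* fell by 1.52 and *Smoc2* fell by 0.75, and *Ascl2* was higher at 15 than at 9 weeks by 0.65.

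**Figure D3:**
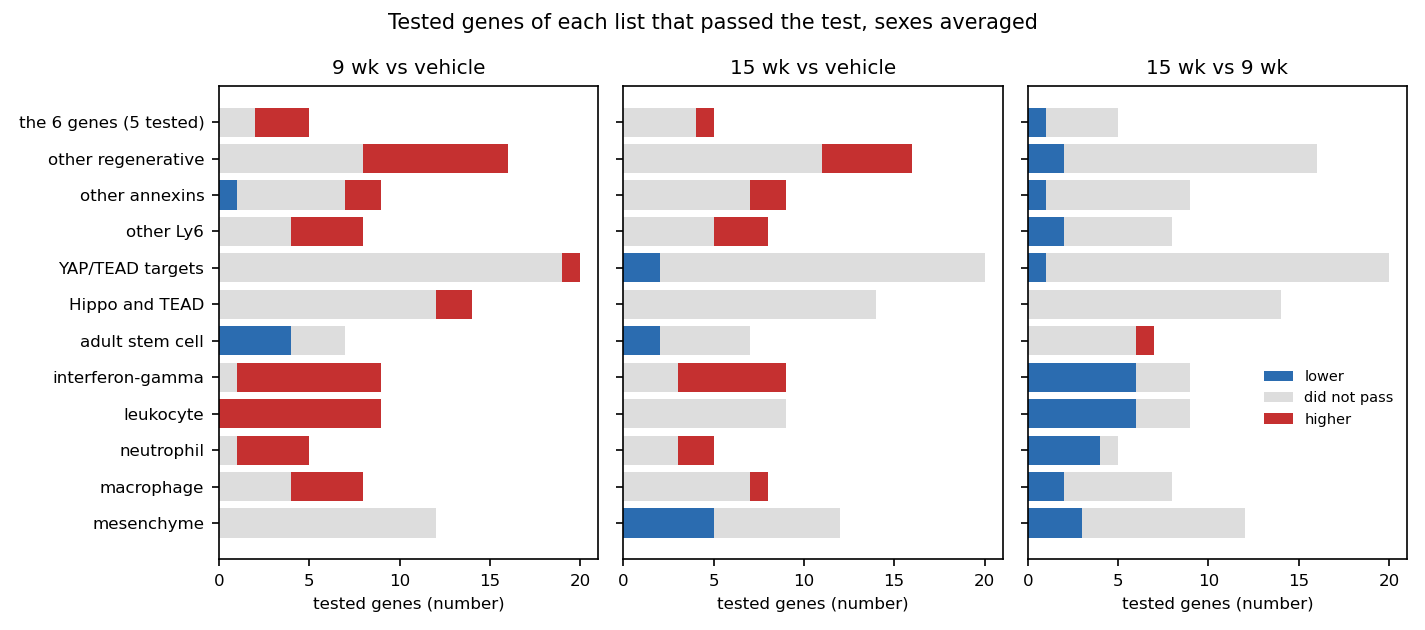
Number of tested genes in each list that were higher, lower or did not pass, with the sexes averaged, in 3 comparisons; "other" lists leave out the 6 genes. Red dominates for interferon-gamma genes (8 of 9) and leukocyte markers (9 of 9) at 9 weeks, and 3 of the 5 tested genes of the set are red there and 1 at 15 weeks.

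Markers of other cells moved with the 9-week increase, and their part in it was not tested. All 9 leukocyte markers passed at 9 weeks, with a summed level of 48.2 to 114.7 CPM in vehicle, 96.1 to 269 CPM at 9 weeks and 61.2 to 160 CPM at 15 weeks. *Lcp1* and *Ptprc* (CD45, the common leukocyte antigen) had the highest means at 9 weeks, 44.2 and 30.8 CPM. Neutrophil markers were at 0 to 3.32 CPM in vehicle, 0.43 to 112 at 9 weeks and 0.534 to 15.9 at 15 weeks, with 4 of 5 tested called at 9 weeks, *S100a9* and *S100a8* the highest at 14.3 and 6.97 CPM, and *Ngp* at 0 in 23 libraries. Macrophage markers ran from 31.9 to 202 CPM in vehicle, from 77.6 to 294 at 9 weeks and from 49.4 to 204 at 15 weeks, with 4 of 8 called at 9 weeks (7 without the pair of libraries that stand apart) and *Lyz2* and *Cd14* the highest at 93.9 and 66.8 CPM. T cell markers summed to 4.56 to 15.5 CPM in vehicle and 9.62 to 24.8 CPM at 9 weeks, with 2 of 7 called. At 15 weeks they summed to 13.8 to 24.4 CPM in females and 6.06 to 11.1 CPM in males. Without the pair of libraries that stand apart 3 were higher at 9 weeks and 2 at 15 weeks.

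With the sexes pooled, stromal markers also had higher median sums at 9 weeks than in vehicle. None of them passed there with all libraries, and their part in the increase was not tested. In females the median sums of smooth muscle and endothelium markers went from 8.26 to 66.8 and from 14.0 to 41.6 CPM. In males they went down, from 86.9 to 45.4 and from 53.3 to 39.2 CPM. Mesenchyme markers had a median summed level of 47.8 CPM in vehicle and 256 at 9 weeks in females, and of 211 and 249 CPM in males. With the sexes pooled these markers had medians of 138 CPM in vehicle, 253 at 9 weeks and 73.5 at 15 weeks. Their range was 34.8 to 1411 CPM in vehicle, where male vehicle replicate 1 held the highest and the next was at 550.3, 53.7 to 411 at 9 weeks and 22.9 to 191 at 15 weeks. Of 12 none was called by edgeR at 9 weeks (1 at an unadjusted p under 0.05, 0 by DESeq2) and 5 were lower at 15 weeks, and without the pair of libraries that stand apart 1 was higher at 9 weeks, 1 lower at 15 weeks and 10 lower at 15 than at 9 weeks. Smooth muscle markers summed to 3.85 to 5969 CPM in vehicle and 16.3 to 229 CPM at 9 weeks, with 0 of 8 called by edgeR (1 unadjusted, 0 by DESeq2) and a median log2 fold change of −1.22, or 0.90 without the pair of libraries, and at 15 weeks 7 were lower by edgeR and 0 by DESeq2. That count rested on male vehicle replicate 1, since the other 9 vehicle libraries were at 3.85 to 133.3 CPM, and without the pair that stands apart 0 were called at 15 weeks by edgeR and the median log2 fold change went from −3.03 to −0.99. Endothelium markers summed to 10.1 to 94.2 CPM in vehicle and 14.3 to 59.8 CPM at 9 weeks, with 0 of 7 called by edgeR (0 unadjusted, 0 by DESeq2) and 2 lower at 15 weeks. For *Msln*, the mesothelium markers summed to at most 9.87 CPM in any library, *Wt1* was at 0 in 27 libraries and *Bnc1* in 28, and *Upk1b* was the most abundant at 3.1 CPM at 9 weeks. Outside male vehicle replicate 1, *Krt5* and *Sprr3* of squamous epithelium reached at most 0.0709 CPM, and *Krt4* and *Krt13* reached 3.32 and 2.43 CPM. The highest sum of the 8 squamous markers there was 9.52 CPM, in male 15-week replicate 5.

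With the leukocyte score, the mean log2 CPM of the leukocyte markers, as a covariate, *Ly6a* still passed at 9 weeks (log2 fold change 1.44, edgeR adjusted p = 0.00353). It passed in males alone (1.80, edgeR adjusted p = 0.000885) and not in females alone, as given above. In the averaged fit *Anxa1* was at 0.45 and did not pass (adjusted p = 0.447), and *Clu* turned to −0.34 (adjusted p = 0.827). The leukocyte score itself differs between these groups, so this fit cannot tell the score from the treatment. With the mesenchyme score in its place *Ly6a* was at 2.07, *Anxa1* at 0.62 and *Clu* at 0.999, the last with an adjusted p of 0.0684.

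**Figure D4:**
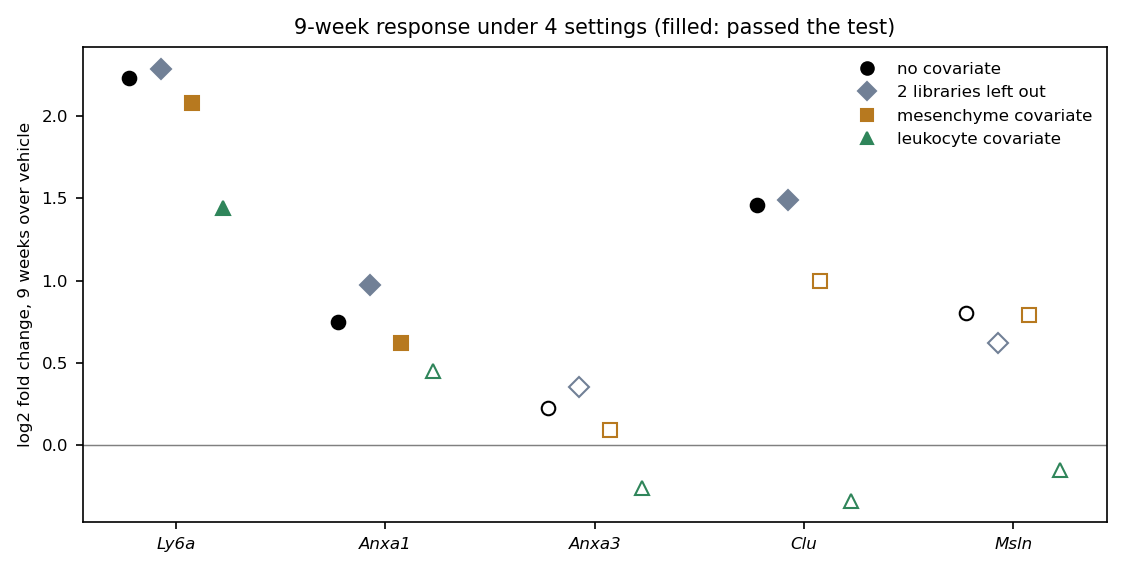
Log2 fold change at 9 weeks over vehicle, sexes averaged, of the 5 tested genes under 4 settings: no covariate, the pair of libraries that stand apart left out, the mesenchyme score as a covariate and the leukocyte score as a covariate; filled symbols passed the test. *Ly6a* is filled under all 4 settings, and *Clu* goes from 1.46 to −0.34 with the leukocyte score.

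Within groups, several of the genes rose and fell together from mouse to mouse. Over the 30 libraries, with each group's mean removed, *Anxa1* followed *Anxa3* with Pearson's r = 0.664 and Spearman's rho = 0.666 (permutation within groups, adjusted p = 0.00359 and 0.0077), and r was 0.76 without the 2 libraries farthest out. The farthest 2 were picked by 1 gene of each relation only. That gene was the earlier of *Anxa1*, *Anxa3*, *Clu*, *Ly6a* and *Msln*, or the gene itself in a relation with a score. Libraries far out in the other gene or in the score stayed in. *Clu* followed *Ly6a* with r = 0.632 and rho = 0.532 (permutation adjusted p = 0.0083 and 0.0219), and r was 0.565 without the farthest 2. *Ly6a* and *Anxa1* gave r = 0.543 and rho = 0.566 (permutation adjusted p = 0.0102 and 0.0139), and 0.671 without the farthest 2. *Anxa3* with *Ly6a* went from r = 0.608 to 0.364 without the farthest 2 libraries, and *Anxa3* with *Clu* from 0.577 to 0.424, so these relations rest in part on those libraries. The pairs of the other genes of the set with *Msln*, which is near the floor, had r of 0.18 to 0.398 and did not pass. *Msln* did pass with the leukocyte score, at r = 0.480 and rho = 0.513 (permutation adjusted p = 0.0152 and 0.0195), and r was 0.490 without the farthest 2. In all 35 relations were computed and adjusted together, and the libraries share depth and cell make-up.

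Of the 5 scores tried *Ly6a* had its highest r with that of the interferon-gamma list, which holds the cytokine gene *Ifng* and 8 genes it induces. Of these 9 genes 8 rose at 9 weeks, with a median log2 fold change of 3.10, and 6 were higher at 15 weeks and 6 lower at 15 than at 9 weeks. The largest log2 fold changes among those that passed were 5.23 for *Cxcl9* (a chemokine for T cells), 5.04 for *Iigp1*, 3.13 for *Gbp2* and 3.10 for *Igtp*, the last 3 being interferon-induced GTPases. Within groups *Ly6a* and the mean log2 CPM of these genes gave r = 0.792 and rho = 0.75 (permutation p = 0.0001 and 9e-05, adjusted p = 0.00175 and 0.00157), and r was 0.719 without the 2 farthest libraries. *Ly6a* also followed the macrophage score (r = 0.617, permutation adjusted p = 0.00612) and the leukocyte score (r = 0.599, permutation adjusted p = 0.0102). *Clu* had its highest r with the leukocyte score, with r = 0.716 and rho = 0.762 (permutation p = 1e-05, the smallest these permutations can give, adjusted p = 0.00035) and r = 0.748 without the farthest 2. *Anxa1* followed the macrophage score (r = 0.691, rho = 0.581, permutation adjusted p = 0.0049 and 0.0184, r = 0.599 without the farthest 2) and also the mesenchyme score (r = 0.684, rho = 0.537, permutation adjusted p = 0.00359 and 0.0184, r = 0.593 without the farthest 2). With the epithelium score *Anxa3* had r = −0.456 and rho = −0.600 (permutation adjusted p = 0.0146 and 0.0129), and r = −0.537 without the farthest 2. No other member passed with that score, with r of −0.352 for *Anxa1*, −0.0555 for *Clu*, 0.0834 for *Ly6a* and 0.216 for *Msln*.

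**Figure D5:**
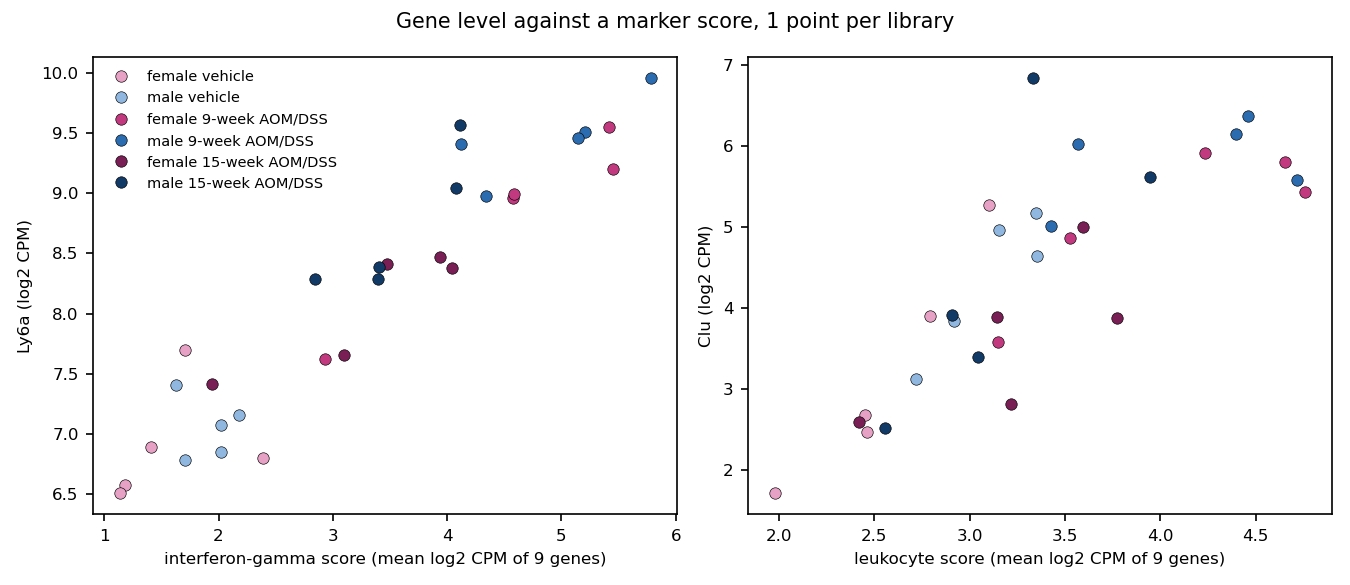
Left, *Ly6a* in log2 CPM against the mean log2 CPM of 9 interferon-gamma genes; right, *Clu* in log2 CPM against the mean log2 CPM of 9 leukocyte markers; each point is 1 library, coloured by group. Vehicle libraries sit at the lower left of the *Ly6a* panel and overlap the 15-week libraries in the *Clu* panel, most 9-week libraries lie at the upper right of both, and within groups r was 0.792 and 0.716.

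Over all 30 libraries, groups included, the non-member genes most like each member by Spearman's rho of log2 CPM were as follows. For *Ly6a* they included *Fer1l4* (0.956) and *Igtp* (0.945), the latter being in the interferon-gamma list. *Anxa1* was most like *Rab32* (0.918), *Adgrf1* (0.9) and *S100a14* (0.897), and *Anxa3* most like *Tmprss2* (0.928), *Pla2g4f* (0.925) and *Tmem14a* (0.916). *Clu* was most like *Stra6* (0.902), *Cd52* (0.901) and *Ltbp2* (0.887), of which *Cd52* is in the leukocyte list. *Msln* had no close companion, the nearest being *Gm11839* (0.705), *Ighg3* (0.699) and *Inpp5d* (0.677).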

How the data were processed

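The authors sequenced stranded poly(A) libraries, used STAR with GRCm38 for alignment and featureCounts for counting; the deposited counts are raw, and duplicates were not removed. Per the submitters' processing notes, bcl2fastq 2.20.0.422 and Trim Galore came before. The FPKM and TPM values are the authors' StringTie estimates per library, as deposited, and a gene's repeated lines (11 to 20 per file) were added. The deposited StringTie coverage, a signal per gene, was not used. No samples were left out.

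Counts were fitted with edgeR 4.0.16 in R 4.3.3, filterByExpr (16261 genes), TMM factors of 0.832 to 1.10 and 1 coefficient per group over all 30 libraries. Adjusted p are Benjamini-Hochberg over all genes of a comparison. Intervals of folds use the SE and 24 residual degrees of freedom. Each comparison was refitted with DESeq2 1.42.0 and other settings. Log2 CPM used a prior count of 2. The fit was tested on simulated data. Correlations were permuted 100000 times within groups. The 6 genes and the lists were chosen with earlier results of these data known. Named besides the 6 are the called genes of a list with the largest change, up to 4 in each direction, all annexin, Ly6 and Hippo genes, the 3 most alike, and of cell type lists the 2 with the highest mean and those near 0. Further genes were named after their values were seen. One gene that the rule names is not reported here.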

Additional observations from a re-analysis of the deposited data

Results flagged for a closer look

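One value stood far from the other libraries of its group among 30 combinations of gene and group examined, and chance alone flags about 1 in 20. *Msln* was at 0.192 CPM in female 15-week replicate 1, on 4 counts, against a group median of 0.987 CPM.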

How the results depend on the processing

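The number of genes called stayed within 1.5 times of the reported one in 233 refits and moved further in 45. With the leukocyte score as a covariate it was 1 at 9 weeks with the sexes averaged and 0 in females at 9 weeks, and with the mesenchyme score it was 2 at 15 weeks, 1 in females and 3 in males at 9 weeks, 2 in males at 15 weeks, and 1 (*Anxa1*) for males against females at 15 weeks. For 15 against 9 weeks it was 0 without a filter on low counts, with the replicate block and with either score, and 2 with the compared libraries only. With the compared libraries only it was 1 in females and 2 in males at 9 weeks. DESeq2 called 1 in females at 15 weeks and 1 for males against females at 15 weeks. Without both libraries that stand apart it was 2 at 15 weeks, 2 for 15 against 9 weeks, 2 in males at 9 and at 15 weeks, 1 in females at 15 weeks and 1 for males against females at 15 weeks. In fits without 1 library it ran from 1 to 2 at 15 weeks, from 0 to 2 for 15 against 9 weeks, from 1 to 2 in females and in males at 9 weeks, from 1 to 2 in males at 15 weeks and from 0 to 1 between vehicle males and females (*Anxa3* without female vehicle replicate 1).

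With the leukocyte score signs turned at 9 weeks, to −0.26 for *Anxa3*, −0.34 for *Clu* and −0.15 for *Msln* with the sexes averaged, −0.15, −0.63 and −0.56 in females, and −0.37 for *Anxa3* and −0.043 for *Clu* in males. At 15 weeks they turned to −0.12 for *Clu* averaged, −0.74 for *Clu* and −0.29 for *Msln* in females, and for 15 against 9 weeks to 0.21 for *Clu* and 0.43 for *Msln*. With the mesenchyme score *Anxa3* turned to 0.10 at 15 weeks averaged and 0.54 in males, and for 15 against 9 weeks *Anxa3* to 0.00030 and *Clu* to 0.068. None of these turned values passed, and the cause was not tested. Without 1 library *Clu* at 15 weeks ran from −0.031 to 0.88 averaged, −0.38 to 0.997 in females and −0.17 to 1.06 in males, *Msln* from −0.030 to 0.79 in females, and *Anxa3* from −0.66 to 0.0053 in females and −0.21 to 0.065 in males at 15 weeks and from −0.039 to 0.10 in males at 9 weeks. Deviations of same-numbered replicates of different groups had correlations of −0.58 to 0.47, median −0.03. For different numbers they were −0.58 to 0.53, median 0.007, so no pairing of mice by number was seen. With the replicate block the *Ly6a* fall was −0.75 with an edgeR adjusted p of 0.0625. Depth limits *Msln* and *Ankrd1*.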
